A study of Mus musculus with 36 samples.

Results

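The comparison described here set left ventricles that received a muscleblind vector against left ventricles with CUG repeats switched on and no vector. It used 6 of the 36 RNA-Seq libraries of the series, chosen by their labels: 3 from MBNL1 mice and 3 from +dox mice, each from a different animal. All of these mice were CUG960 animals, homozygous for TREDT960I, a doxycycline-responsive transgene that carries interrupted CUG repeats in human DMPK sequence, and hemizygous for MHCrtTA, a transactivator driven by the α-myosin heavy chain promoter in cardiomyocytes. The +dox mice were on doxycycline from postnatal day 1 and received no virus. The MBNL1 mice had the same genotype and the same doxycycline, and at 9 weeks they received through the tail vein an AAV9 vector with 3XFLAG-tagged human MBNL1 under the heart-directed human TNNT2 promoter. Tissue was collected at 21 weeks in both cohorts. A cohort with an empty or reporter vector is not among the samples, so the vector and the MBNL1 it carried cannot be told apart. Levels in the 3 ventricles of -dox mice, which have the same genotype and never had doxycycline, are given beside the results as the state without induced repeats. The question was which genes differed in level after MBNL1 was supplied while the repeats stayed on.

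Muscleblind-like (MBNL) proteins bind RNA and steer alternative splicing, polyadenylation site choice, localization and decay of transcripts as muscle matures after birth. In myotonic dystrophy type 1 the expanded CUG repeat in the DMPK transcript folds into hairpins that hold MBNL proteins in nuclear foci, and their other target transcripts lose them. In the heart the disease is known for slowed conduction, arrhythmia and weakened contraction.

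The labels were checked first. Mbnl1, the mouse gene, was at 49.3, 44.9 and 54.7 TPM (transcript levels per length, scaled to the same total in each library) in replicates 1 to 3 of the +dox cohort and at 68.1, 56.4 and 61.8 TPM in those of the MBNL1 cohort. The lowest MBNL1 ventricle stood above the highest +dox ventricle, but the difference did not pass the test: log2 fold change 0.19 ± 0.09 (SE), adjusted p = 0.177. The vector carries a human coding sequence, and reads from it were not separated from those of the mouse gene, so this value is not a measure of how much protein the vector gave. The 5 ventricular cardiomyocyte markers (Myl2, Myl3, Irx4, Hey2 and Myh7) summed to 24716 to 28117 TPM in the +dox libraries and 24734 to 25281 TPM in the MBNL1 libraries, and the 7 atrial markers summed to 140 to 483 and 152 to 266 TPM. Replicate 3 of each cohort came from a female by the data: Ddx3y, on the Y chromosome, was at 0.292 and 0.285 CPM (counts scaled to library size, not to length) there and at 95.9 to 123 CPM in the other libraries. The library names place replicates 1 and 2 of each cohort in 1 series and replicate 3 in another, so sex and library series were balanced between the cohorts.

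One library stood apart. Replicate 1 of the MBNL1 cohort listed 16885 genes above 0, against 20578 to 24041 in the other 17 ventricular libraries, although its total of 76.3 M counts lay within the 69.5 to 97.1 M of the 6. It listed 0 counts for 269 symbols that had at least 10 counts in each of those 17 libraries, where no other library had more than 2 such symbols. The 5 with the highest mean counts elsewhere were Gm45837 (1679), Gemin4 (448), Gm28035 (371), Ccl8 (173) and Gm49339 (150). Counts of called genes are therefore also given without this library.

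A gene was called where edgeR's quasi-likelihood test gave a Benjamini-Hochberg adjusted p below 0.05 and the change was at least 1.5-fold, and the adjusted p-values below are from that test. Of 19231 genes tested, 511 (2.66%) were called: 220 (1.14%) were higher in the MBNL1 ventricles and 291 (1.51%) were lower. The median change of the called genes was 1.83-fold upward and 2.09-fold downward, and 92 rises and 158 falls were at least 2-fold. The 6 libraries did not overlap between the cohorts for 458 of the 511, while 23.2% of all genes tested did not overlap. The 511 were picked by a test of the same cohort difference, so this is not separate support. Without MBNL1 replicate 1, 325 genes (1.65%) were called, 159 higher (0.806%) and 166 lower (0.842%), and 227 were called in both fits (101 higher and 126 lower). Of the 291 falls, 165 were not called without that library, and 46 had 0 counts in it. None of the 220 rises had 0 counts there, and 119 of them were not called without it. Of the 140 calls with a mean below 1 CPM, 36 (25.7%) were kept without the library, and of the 16 calls above 100 CPM, 12 (75%) were kept. In a fit of the 6 libraries alone, which has 4 residual degrees of freedom in place of 24, 78 genes were called.

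**Figure D1:**
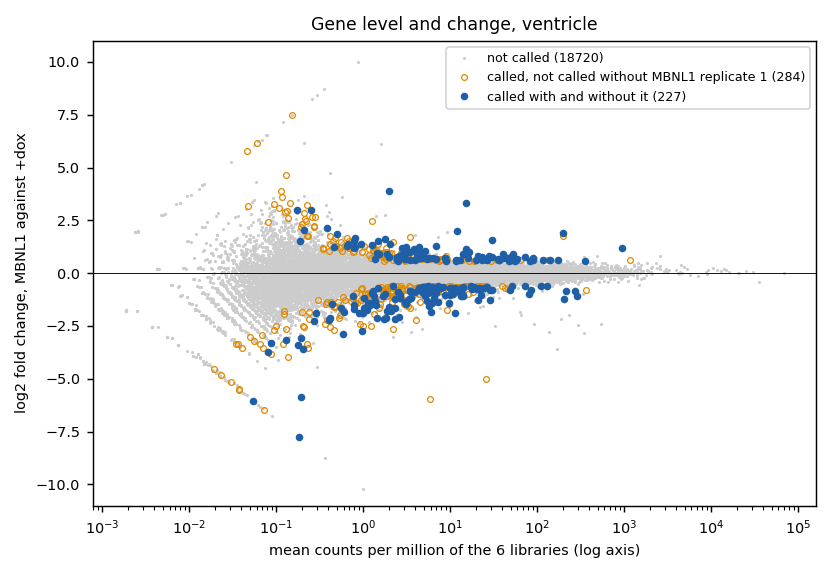
Log2 fold change of MBNL1 against +dox ventricles (vertical axis) by mean CPM of the 6 libraries (log horizontal axis), 1 point a gene tested. Filled blue points are the 227 genes called with and without MBNL1 replicate 1, open orange points the 284 called only with it, grey points those not called; the open points lie mostly at low levels.

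Among genes called with and without MBNL1 replicate 1, with a mean normalized count of at least 100 no overlap between the cohorts and a gene name (unnamed gene models were left aside), 81 rose and 82 fell. The largest rise of these was Cdnf, which encodes a neurotrophic factor of the endoplasmic reticulum and lies on chr2:3513030-3526376, plus strand (build GRCm38). Cdnf was at 2.76, 2.51 and 2.99 CPM in the +dox ventricles, at 37.2, 25.01 and 21.5 CPM in the MBNL1 ventricles and at 39.1, 37.0 and 30.6 CPM in the -dox ventricles. The MBNL1 libraries thus stood far above all +dox libraries, and the rise was 10.1-fold (log2 3.34 ± 0.24, SE, adjusted p = 1.08e-09). Only MBNL1 replicate 1, the library with low detection, lay within the range of the -dox libraries. MBNL1 replicates 2 and 3 lay below every -dox library. Without MBNL1 replicate 1 the log2 fold change against +dox was 3.08.

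Coq8a and Ckmt2 rose from higher counts. Coq8a, an atypical kinase needed for coenzyme Q synthesis, was at 112, 82.3 and 65.2 CPM with repeats alone and at 362, 337 and 257 CPM with the vector, a 3.68-fold rise (log2 1.88 ± 0.18, adjusted p = 3.54e-07). Ckmt2, the mitochondrial creatine kinase of striated muscle, was at 594, 560.4 and 595 CPM and at 1343, 1413 and 1247 CPM, a 2.29-fold rise (log2 1.19 ± 0.11, adjusted p = 1.11e-07). Coq8a (chr1:180165238-180199602, minus strand) overlaps Cdc42bpa on the other strand and Ckmt2 (chr13:91853387-91876885, minus strand) an antisense transcript, and how reads were assigned by strand is not given in the sources used here. Both genes were still below their -dox levels, which were 585 to 669 CPM for Coq8a and 1789 to 1967 CPM for Ckmt2. Ckmt2, Cdnf and Kcna4 (below), together with Ccnd2, were called in the fit as reported and in each of the 21 alternative settings.

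Other genes among the 12 largest rises had lower counts. Kcnv2 (chr19:27322588-27337179, plus strand), a silent subunit that joins other voltage-gated potassium channel subunits, was at 3.24, 4.41 and 7.23 CPM in the +dox and 20.9, 19.9 and 17.7 CPM in the MBNL1 ventricles (log2 1.98 ± 0.26, adjusted p = 2.57e-05). Mybpc2, the fast skeletal form of myosin-binding protein C, was at 22.2, 18.4 and 5.11 CPM and at 45.2, 50.2 and 41.4 CPM (log2 1.57 ± 0.36, adjusted p = 0.00833). For Mybpc2 the +dox values spread widely, with replicate 3 far below the others. Capn3, the muscle calpain protease, was at 1.14 to 2.19 CPM and 3.30 to 4.31 CPM (log2 1.20), and P2rx6, an ATP-gated channel subunit, at 0.967 to 1.25 and 1.95 to 3.67 CPM (log2 1.38). Taf1a, a subunit of the RNA polymerase I selectivity factor, was at 2.38 to 2.79 and 5.07 to 7.41 CPM (log2 1.26). Nudt6, a nudix hydrolase gene that overlaps Fgf2 on the opposite strand, was at 3.51 to 4.76 and 8.30 to 10.9 CPM (2.46-fold), so reads of the pair could have been mixed. Capn3 overlaps Ganc on the same strand. The remaining members of the 12 largest rises were Mfsd4b1 (log2 1.59), Pbld2 (log2 1.54) and Pnck (log2 1.23). For Pbld2 the value of MBNL1 replicate 1, 3.55 CPM, was more than that of the other MBNL1 libraries, at 1.55 and 1.57 CPM.

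**Figure D2:**
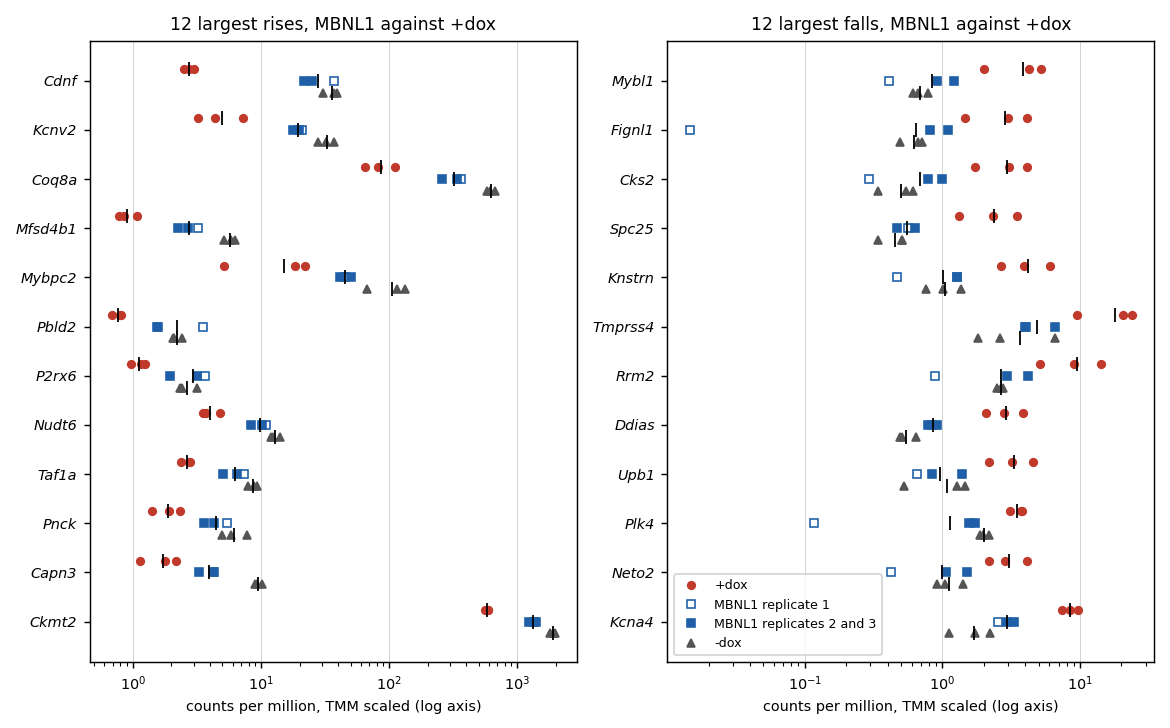
CPM (log axis) of 12 rising and 12 falling genes, those with the greatest change, in the 3 +dox (red circles), 3 MBNL1 (blue squares, replicate 1 open) and 3 -dox ventricles (grey triangles); vertical bars mark cohort means. Cdnf moves from 2.51-2.99 to 21.5-37.2 CPM, and MBNL1 replicate 1 is the lowest library for Fignl1 (0.0145 CPM) and Plk4 (0.116 CPM).

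The upstream sequence of Ckmt2, a rise called in all settings, is shown so that the letters near its start site can be read. It is the 250 bases before the RefSeq start on build GRCm38.p6, 5′ to 3′ on the gene's strand. Capitals mark the CCAAT box, the element TTTGAA and the E-box CAGCTG, searched on either strand. It lies at chr13:91876886-91877135 on the minus strand.
Ckmt2: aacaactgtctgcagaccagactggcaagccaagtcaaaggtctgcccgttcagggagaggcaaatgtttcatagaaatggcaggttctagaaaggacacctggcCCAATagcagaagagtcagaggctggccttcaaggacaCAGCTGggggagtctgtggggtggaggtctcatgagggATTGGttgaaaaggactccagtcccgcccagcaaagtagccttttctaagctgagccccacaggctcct
Ckmt2 held 2 copies of CCAAT, 1 in each direction, and 1 CAGCTG. Of the 10 among the 12 largest rises with a window, 6 held CCAAT and 2 held CAGCTG, against 39.7% and 15% of the 12837 tested genes with a window.

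Of the 12 largest falls, Kcna4 had the smallest adjusted p. It lies on chr2:107290639-107298502, plus strand, and encodes Kv1.4, a pore subunit of the fast-inactivating transient outward potassium current. Kcna4 was at 9.71, 8.45 and 7.46 CPM in the +dox ventricles, 2.55, 3.32 and 2.95 CPM in the MBNL1 ventricles and 1.12, 1.72 and 2.23 CPM in the -dox ventricles. The fall was 2.91-fold (log2 -1.54 ± 0.17, adjusted p = 1.18e-06), and the MBNL1 libraries lay between the ranges of the other cohorts without touching either. Other falls were Tmprss4, a membrane serine protease, at 9.55 to 24.01 and 3.99 to 6.61 CPM (log2 -1.88), Upb1, the last enzyme of pyrimidine breakdown, at 2.17 to 4.53 and 0.655 to 1.38 CPM (log2 -1.78), and Neto2, an auxiliary subunit of kainate receptors, at 2.20 to 4.10 and 0.422 to 1.50 CPM (log2 -1.62).

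The 6 genes described next were picked after their values were seen, among called genes with a mean above 100 CPM that were also called without MBNL1 replicate 1. Ccnd2, encoding cyclin D2, which drives cells out of G1, was at 419, 377 and 391.7 CPM in the +dox ventricles and 153, 204 and 204 CPM in the MBNL1 ventricles (log2 -1.08 ± 0.14, adjusted p = 2.47e-05). Dstn, the actin-depolymerizing protein destrin, was at 364, 359.5 and 346 CPM and at 194, 205 and 199 CPM (log2 -0.84 ± 0.14, adjusted p = 0.000591). Abat, the mitochondrial GABA transaminase, was at 274, 289 and 276 CPM and at 147, 154 and 161 CPM (log2 -0.86 ± 0.16, adjusted p = 0.0015). In each of these the MBNL1 ventricles stood above the -dox ventricles, which were at 113 to 126 CPM for Ccnd2, 83.5 to 93.4 CPM for Dstn and 56.5 to 72.2 CPM for Abat. Cxadr, the coxsackievirus and adenovirus receptor of the intercalated disc, was at 125 to 147 and 83.2 to 96.2 CPM (log2 -0.60). Tln1, talin 1, which links integrins to actin, was at 122 to 157 and 199.8 to 230.4 CPM (log2 0.60), and Gna12, a G protein α subunit, at 109 to 115 and 169 to 174 CPM (log2 0.61). The -dox ventricles were at 79.9 to 89.1 CPM for Cxadr and 217 to 229 CPM for Tln1, and the MBNL1 values overlapped both ranges.

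Cell cycle genes made up the longest set of calls in any of the lists examined. Of the 25 members, all tested, 9 fell and none rose, beside 1.51% of all genes tested called lower and 1.14% called higher. Calls were more frequent among genes with a mean of 1 to 10 CPM, of which 5.56% were called in either direction. The list was chosen with earlier results of these data known, so its counts describe the members and are not a test of the list. A log2 fold change below 0 was found for 24, and 18 did not overlap between the cohorts, beside 23.2% of all genes. The list's median log2 fold change was -0.98, beside -0.04 over all genes tested. The summed level of the list was 118, 92.5 and 81.4 TPM in the +dox ventricles and 47.6, 66.7 and 64.9 TPM in the MBNL1 ventricles. In these bulk samples fewer dividing cells and less of these transcripts per cell cannot be told apart.

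Genes of nucleotide supply and replication licensing were among the 9. Rrm2, the regulated subunit of ribonucleotide reductase, was at 14.3, 9.00 and 5.16 CPM in the +dox ventricles and 0.887, 4.21 and 2.93 CPM in the MBNL1 ventricles (log2 -1.83 ± 0.39, adjusted p = 0.00426). Mcm2, of the replicative helicase, was at 18.6, 19.2 and 13.4 CPM and at 8.45, 9.94 and 8.60 CPM (log2 -0.92 ± 0.18, adjusted p = 0.00127), and its partners Mcm4 (log2 -0.65) and Mcm5 (log2 -0.90) fell as well. E2f1, a transcription factor of S-phase entry, was at 7.22, 5.51 and 3.19 CPM and at 1.51, 1.80 and 1.72 CPM (log2 -1.66, adjusted p = 0.0142). The cyclins E, which partner CDK2, fell by 0.88 for Ccne1 and 0.97 for Ccne2 on the log2 scale. Cdk1, the mitotic kinase, was at 6.24, 4.16 and 2.53 CPM and at 0.873, 2.24 and 1.58 CPM (log2 -1.46, adjusted p = 0.0289), and Aurka, the spindle pole kinase, at 2.84, 2.65 and 1.397 CPM and at 0.116, 1.04 and 1.04 CPM (log2 -1.65, adjusted p = 0.0163). Within each cohort the libraries differed: of the +dox libraries replicate 1 was highest for most members, and MBNL1 replicate 1 was lowest of all for most. Without MBNL1 replicate 1 the median was -0.88 and 2 members were called, Rrm2 and Mcm2. Without +dox replicate 1 the median was -0.86 and 2 members were called, and in the fit of the 6 libraries alone 1 was. Bub1b, a spindle checkpoint kinase, is one of the symbols at 0 in that library alone, and how far its low detection entered the other values was not tested.

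**Figure D3:**
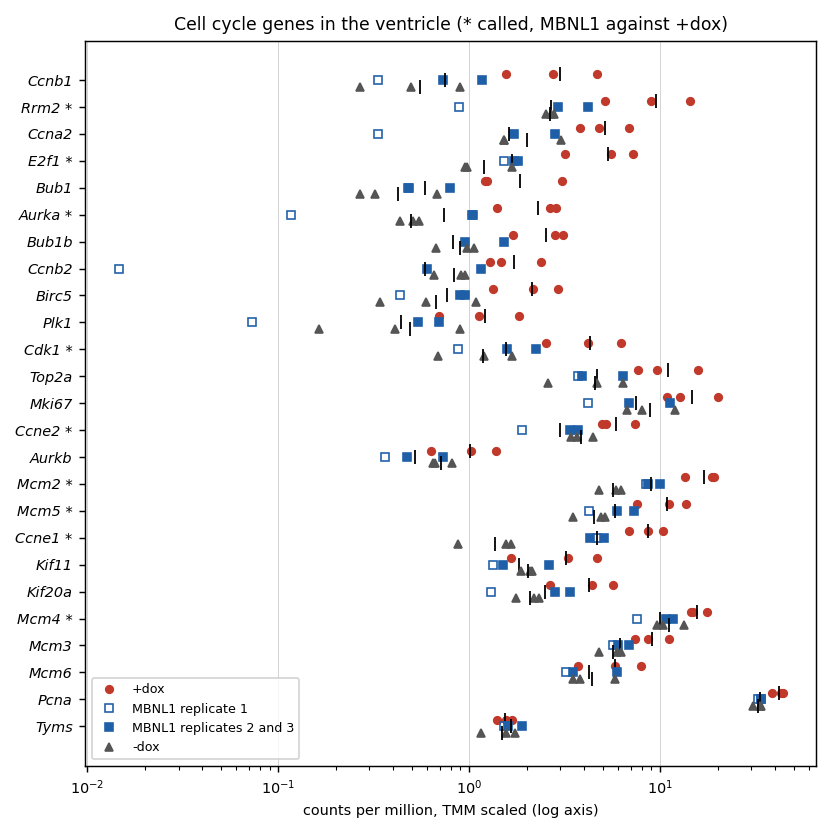
CPM (log axis) of the 25 cell cycle genes in the 3 +dox, 3 MBNL1 (replicate 1 open) and 3 -dox ventricles; vertical bars mark cohort means and asterisks the 9 called genes. Bub1b in MBNL1 replicate 1 is at 0 and has no point; the MBNL1 and -dox ranges overlap for all but Ccne1 and Mcm2, whose MBNL1 points lie between the other cohorts.

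The 12 largest falls held further genes, none of them on that list. Mybl1, a MYB family transcription factor, was at 5.17, 4.30 and 2.01 CPM and at 0.407, 0.917 and 1.21 CPM (log2 -2.18 ± 0.33, adjusted p = 0.000108). Cks2, a subunit of cyclin-dependent kinases, was at 4.13, 3.06 and 1.72 CPM and at 0.291, 0.996 and 0.783 CPM (log2 -2.11), and Spc25, of the kinetochore NDC80 complex, at 3.50, 2.35 and 1.32 CPM and at 0.567, 0.632 and 0.470 CPM (log2 -2.10). Knstrn, a kinetochore and spindle protein (log2 -2.07), Fignl1, an ATPase of DNA repair (log2 -2.15), Ddias, a DNA damage-induced suppressor of apoptosis (log2 -1.78), and Plk4, the kinase of centriole duplication (log2 -1.64), were the others not yet given. For Fignl1 and Plk4 the fold depended on MBNL1 replicate 1, at 0.0145 and 0.116 CPM, and was -1.58 and -1.10 on the log2 scale without it.

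Upstream sequences of 5 of these falling genes are printed because CCAAT boxes and the TTTGAA element are known from promoters of cell cycle genes; build, length and capitals are as above. Rrm2 (chr12:24708004-24708253) and Cks2 (chr13:51644982-51645231) are on the plus strand, and Mcm2 (chr6:88898781-88899030), Cdk1 (chr10:69352913-69353162) and Spc25 (chr2:69206214-69206463) on the minus strand.
Rrm2: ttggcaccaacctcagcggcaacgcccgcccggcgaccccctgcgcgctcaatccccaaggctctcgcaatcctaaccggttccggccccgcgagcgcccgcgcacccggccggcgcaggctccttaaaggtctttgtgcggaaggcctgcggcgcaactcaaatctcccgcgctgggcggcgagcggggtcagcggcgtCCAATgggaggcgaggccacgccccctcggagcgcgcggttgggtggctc
Mcm2: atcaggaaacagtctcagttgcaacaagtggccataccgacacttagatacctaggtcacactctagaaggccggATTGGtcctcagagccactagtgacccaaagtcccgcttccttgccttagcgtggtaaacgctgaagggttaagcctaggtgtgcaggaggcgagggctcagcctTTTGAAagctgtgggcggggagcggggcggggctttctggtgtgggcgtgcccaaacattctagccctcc
Cdk1: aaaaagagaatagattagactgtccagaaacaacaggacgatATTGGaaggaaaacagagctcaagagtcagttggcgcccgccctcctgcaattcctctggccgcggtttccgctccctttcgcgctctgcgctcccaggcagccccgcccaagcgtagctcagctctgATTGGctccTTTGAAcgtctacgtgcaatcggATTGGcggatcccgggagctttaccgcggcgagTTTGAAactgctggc
Cks2: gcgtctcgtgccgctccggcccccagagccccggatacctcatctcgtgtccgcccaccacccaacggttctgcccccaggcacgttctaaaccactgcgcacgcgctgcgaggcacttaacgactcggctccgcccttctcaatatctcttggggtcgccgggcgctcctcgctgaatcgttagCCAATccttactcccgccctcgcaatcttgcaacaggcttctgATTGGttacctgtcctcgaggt
Spc25: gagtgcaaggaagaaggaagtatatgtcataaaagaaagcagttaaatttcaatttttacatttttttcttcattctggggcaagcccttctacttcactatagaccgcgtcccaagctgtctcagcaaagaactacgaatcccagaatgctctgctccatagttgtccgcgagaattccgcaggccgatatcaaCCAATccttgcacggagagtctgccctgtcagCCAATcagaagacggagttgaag
All 5, chosen by name and not by a rule, held CCAAT in 1 or the other direction. Of the 10 among the 12 largest falls with a window, 6 held CCAAT and 0 held TTTGAA. The same numbers held for the 10 among the 12 largest rises with a window. Of the 20 members of the cell cycle list with a window, 16 (80%) held CCAAT and 6 (30%) held TTTGAA, against 39.7% and 13.3% of the tested genes with a window; of the 7 such members that were called, 5 held CCAAT and 2 held TTTGAA. These are matches of letters and say nothing of what was bound.

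Among the muscleblind and splicing regulators, 0 of 18 tested members were called, beside 2.66% of all genes tested. For 6 of the 18 the cohorts did not overlap, beside 23.2% of all genes tested. Mbnl2, the paralog that shares target sites with Mbnl1, was at 358, 352 and 375 CPM in the +dox ventricles and 334, 251 and 283 CPM in the MBNL1 ventricles (log2 -0.32 ± 0.09, adjusted p = 0.0235), under the 1.5-fold limit. Mbnl3 was at 0.395 to 0.415 and 0.189 to 0.598 CPM, and Dmpk, the mouse gene whose human counterpart carries the repeat in patients, at 504 to 644 and 535 to 624 CPM (log2 0.03 ± 0.09, adjusted p = 0.866). Rbfox1, another splicing regulator of muscle, overlapped between the cohorts, at 9.07 to 16.2 and 13.3 to 14.7 CPM.

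Calcium handling genes also gave 0 calls of 29, beside 2.66% of all genes tested. For 12 of the 29 the cohorts did not overlap, beside 23.2% of all genes tested. The 2 members that the study names differed between the cohorts by less than the fold limit. Ryr2, the calcium release channel of the sarcoplasmic reticulum, was at 1154, 1174 and 1059.8 CPM in the +dox ventricles and 1566, 1428 and 1448 CPM in the MBNL1 ventricles, a 1.31-fold difference (log2 0.39 ± 0.07, adjusted p = 0.000763). Asph, whose junctin and junctate products sit beside the release channel, was at 498, 488 and 472 CPM and at 393, 386 and 371 CPM (log2 -0.34 ± 0.09, adjusted p = 0.0117). For neither gene did the cohorts overlap, and both differences were below 1.5-fold. The -dox ventricles were further out in the same direction, at 2027 to 2401 CPM for Ryr2 and 253 to 285 CPM for Asph. Atp2a2, the calcium pump, and Pln, its inhibitor, had log2 fold changes of 0.09 and -0.09, and neither passed the test.

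Of 30 potassium channel genes 2 rose, Kcnv2 and Kcna7, and 1 fell, Kcna4. Over all genes tested 2.66% were called. The list had 21 members above 0 and 9 below, and a median of 0.17 on the log2 scale, beside -0.04 over all genes tested. Kcna7, a delayed rectifier subunit of muscle, was at 3.11, 3.43 and 2.96 CPM and at 4.63, 4.996 and 5.01 CPM (log2 0.62 ± 0.11, adjusted p = 0.00101). All 3 were also called without MBNL1 replicate 1. Of 22 sodium and chloride channel, connexin and pacemaker channel genes tested, 11 were above 0 and 11 below, with a median of 0.01; 3 rose (2 without MBNL1 replicate 1) and none fell, and Clcn1 and Scn10a were among those that rose. Clcn1, the skeletal muscle chloride channel whose missplicing causes myotonia, was near the detection floor, at 0.273, 0.203 and 0.169 CPM and at 0.771, 0.869 and 0.712 CPM (log2 1.84 ± 0.29, adjusted p = 0.000177), and its -dox level of 2.58 to 3.52 CPM lay above both. Scn10a (log2 1.05, adjusted p = 0.0394) overlapped between the cohorts and was not called without MBNL1 replicate 1. Gja5, connexin 40 of the conduction system, was at 4.25 to 4.70 and 4.06 to 5.03 CPM, and Hcn4, the main pacemaker channel, at 37.3, 36.5 and 9.17 CPM and at 18.1, 16.5 and 21.2 CPM. Both overlapped, and for Hcn4 the +dox libraries spread more than the cohorts differed (log2 -0.58 ± 0.52, adjusted p = 0.526).

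In the fuel lists most differences were small, and the calls are set beside the 2.66% called over all genes tested. Of 15 genes of creatine kinase and pyruvate dehydrogenase control, 2 rose, Ckmt2 and Pdk4, and 1 fell, Pdk3 (list median -0.06). Pdk4, a kinase that shuts pyruvate dehydrogenase when fat is burned, was at 101, 122 and 54.1 CPM and at 282, 409 and 234 CPM (log2 1.74 ± 0.49, adjusted p = 0.0286). Without MBNL1 replicate 1 Pdk4 had log2 1.80 at an adjusted p of 0.0503, and Pdk3 (log2 -0.80) was not called either. Of 31 genes of fatty acid uptake and oxidation, 28 had a log2 fold change above 0, the median was 0.23, and 1 was called, Acot1, a cytosolic acyl-CoA thioesterase, at 0.955, 1.98 and 1.90 CPM and at 7.57, 4.96 and 3.29 CPM (log2 1.71 ± 0.40, adjusted p = 0.008); Acot1 has near copies of its sequence in the same family, and it was not called without MBNL1 replicate 1, where log2 was 1.36 at an adjusted p of 0.0534. Their summed level was 12113 to 13465 TPM in the +dox and 13151 to 14919 TPM in the MBNL1 libraries, which overlapped. None of 23 genes of glucose uptake, glycolysis and glycogen was called (median 0.09).

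Calls in the contractile and structural lists are set beside the 2.66% called over all genes tested. Of 42 sarcomere and Z-disc genes, 2 rose (Mybpc2 and Tcap) and 1 fell (Mybphl). Tcap, the titin cap protein telethonin, was at 985, 1077 and 729 CPM and at 1428, 1502 and 1331 CPM (log2 0.61 ± 0.19, adjusted p = 0.0423), and Mybphl, a myosin-binding protein H-like gene of atrium and conduction system, at 7.54, 12.1 and 22.8 CPM and at 3.38, 4.17 and 4.9998 CPM (log2 -1.75 ± 0.54, adjusted p = 0.0419). Neither was called without MBNL1 replicate 1. Of 23 dystrophin complex and intercalated disc genes, Sntb1, a syntrophin, fell (log2 -0.72), also only with that library. None of 20 genes of hypertrophy and the fetal cardiac program was called, and none of 30 genes of fibrosis and extracellular matrix. Myh7, the slow myosin heavy chain, overlapped at 976 to 1990 and 1414.9 to 1955 CPM, as did Nppa, atrial natriuretic peptide, at 51.3 to 170.3 and 58.1 to 107 CPM.

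**Figure D4:**
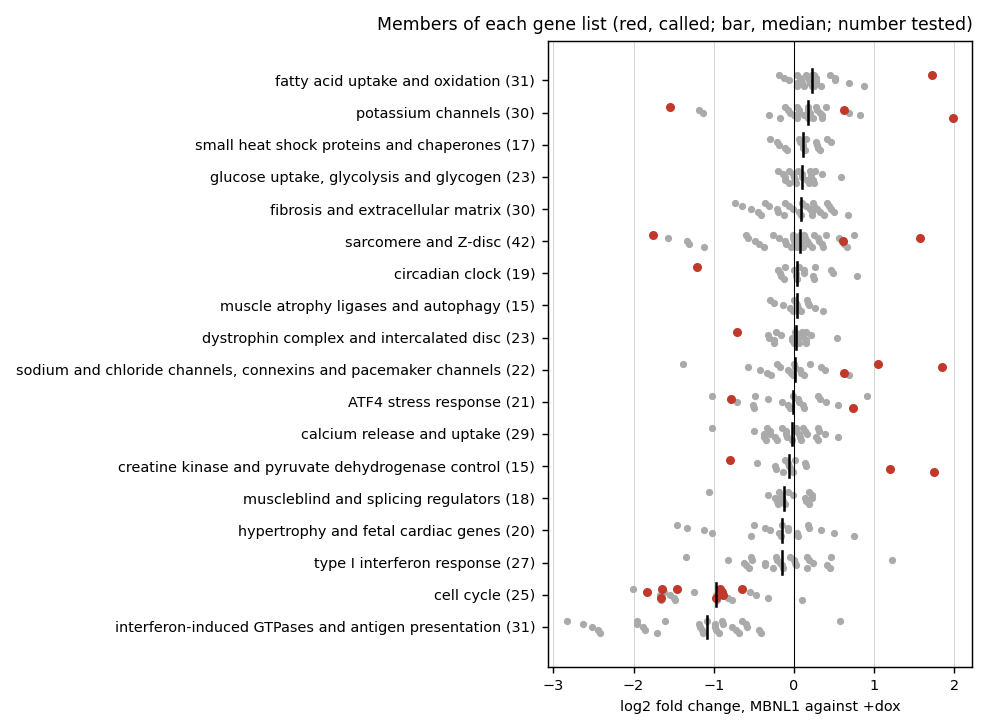
Log2 fold change of MBNL1 against +dox ventricles (horizontal axis) for each tested member of the 18 gene lists, ordered by list median (black bar), with called genes in red and the number tested in parentheses. Cell cycle (median -0.98, 9 called) and interferon-induced GTPases and antigen presentation (median -1.09, 0 called) lie lowest.

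In the stress lists the calls were single genes, and over all genes tested 2.66% were called. Of 21 genes of the ATF4 response, Psat1, of serine synthesis, rose (log2 0.73) and Sesn2, a stress-induced inhibitor of mTORC1, fell (log2 -0.79), and neither was called without MBNL1 replicate 1. Npas2, a partner of the core clock, was the single call among 19 circadian genes (log2 -1.21, adjusted p = 0.0445), at 4.54, 4.09 and 3.12 CPM and at 0.567, 2.09 and 2.42 CPM, and was not called without that library. None of 17 small heat shock proteins and chaperones and none of 15 atrophy ligase and autophagy genes was called.

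Interferon-γ-induced GTPases and antigen presentation genes were low in the MBNL1 cohort by their median, but no member passed the test. Of the 31 tested, 30 had a log2 fold change below 0, and the median was -1.09. None of the 31 separated the cohorts, beside 23.2% of all genes tested that did. The summed level was 2052, 690.5 and 6558 TPM in replicates 1 to 3 of the +dox cohort and 679, 545.5 and 2851 TPM in the MBNL1 cohort. Replicate 3, the female of each cohort and its only library from the other library series, was highest in both cohorts. Sex and library series cannot be told apart here. The sum of +dox replicate 2 lay within the MBNL1 range. Igtp, an immunity-related GTPase, was for instance at 308, 15.9 and 1203 CPM and at 13.7, 10.6 and 257 CPM. The median was -0.11 without +dox replicate 3 and 0.115 without both that library and MBNL1 replicate 1. Without MBNL1 replicate 3 it was -1.97 and 10 members were called, without +dox replicate 2 it was -1.57 and 2 were, and DESeq2 on all libraries called 3. None of 27 genes of the type I interferon response was called either, beside 2.66% of all genes tested.

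Marker sums of other cell types mostly overlapped between the cohorts. They did so for endothelial cells (583 to 640 and 602 to 721 TPM), fibroblasts (724 to 777 and 772 to 912 TPM), smooth muscle and pericytes (173 to 233 and 180 to 231 TPM), macrophages (119 to 184 and 103 to 208 TPM), B cells, T cells, sinoatrial node, red blood cells and white fat. The 4 lung markers were at most 0.06 TPM in sum. Skeletal muscle markers summed to 1020 to 1124 and 1126 to 1609 TPM, without overlap and with 0 calls. Most of that sum was Ckm, at 792 to 855 and 890 to 1176 TPM, and Acta1, at 183 to 331 and 235 to 554 TPM. In CPM Ckm overlapped, at 1196 to 1453 and 1407 to 1486. Of the 6 members tested, 3 were above 0 and 3 below, with a median of -0.59 on the log2 scale. Brown fat markers summed to 37.0 to 39.8 and 42.4 to 43.2 TPM, also without overlap and with 0 calls, and 2 members were above 0 and 2 below. The single marker called was Hba-a2, an α-globin, at 4.08, 4.44 and 26.7 CPM and at 0, 0 and 0.556 CPM (adjusted p = 0.0337), while its near-identical copy Hba-a1 was at 77.1 to 229 and 127 to 236 CPM. How reads were split between these copies is uncertain, and Hba-a2 was not called without MBNL1 replicate 1.

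The MBNL1 ventricles were also set against the -dox ventricles in the same fit, to see where levels differed from mice without induced repeats. The -dox mice also had no doxycycline and no vector, so repeats, doxycycline and vector cannot be told apart in this comparison. Of the 19231 genes, 501 (2.61%) were called, 215 higher (1.12%) and 286 lower (1.49%), and 4377 had an unadjusted p under 0.05. The test left 342 calls (179 higher, 163 lower) when MBNL1 replicate 1 was left out and 317 (148 higher, 169 lower) when -dox replicate 1 was. This comparison shares the MBNL1 libraries with the one above, so values are given side by side without a measure of likeness. Among genes described above that rose with the vector, Cdnf (log2 -0.35), Ckmt2 (log2 -0.50), Kcnv2 (log2 -0.74), Taf1a (log2 -0.47) and Nudt6 (log2 -0.39) were not called against -dox. Ckmt2 passed edgeR's test (adjusted p = 0.00578) and missed only the fold limit. P2rx6 (log2 0.16) and Pbld2 (log2 0.02) were close to 0, but for Pbld2 MBNL1 replicate 1 stood above the other MBNL1 libraries, as given above. Coq8a (log2 -0.96), Mfsd4b1 (log2 -1.07), Capn3 (log2 -1.26), Mybpc2 (log2 -1.21), Scn10a (log2 -1.05) and Clcn1 (log2 -1.89) were called lower than in -dox ventricles. Among the falls, Kcna4 (log2 0.80), Ccnd2 (log2 0.63), Dstn (log2 1.16), Abat (log2 1.23), Mcm2 (log2 0.68) and Ccne1 (log2 1.77) were called higher than in -dox ventricles.

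Over the whole cell cycle list the median log2 fold change against -dox was 0.04, and Mcm2 and Ccne1 were the 2 members called. Other list members were called against the -dox ventricles and not called against the +dox ventricles. Kcnip2, the KChIP2 subunit of the transient outward current, was at 32.3, 34.1 and 53.6 CPM in the +dox, 43.7, 44.3 and 47.3 CPM in the MBNL1 and 88.3, 80.2 and 99.2 CPM in the -dox ventricles (log2 -0.98 against -dox, adjusted p = 0.00168). Cacna1g, the T-type calcium channel Cav3.1, was at 48.4 to 120.2, 80.5 to 123 and 28.5 to 51.6 CPM (log2 1.32 against -dox, adjusted p = 0.00635). Myl1, a fast myosin light chain, was at 26.2 to 39.2, 20.9 to 31.2 and 57.0 to 78.2 CPM (log2 -1.398), and Rbfox1 at 9.07 to 16.2, 13.3 to 14.7 and 20.7 to 33.9 CPM (log2 -0.90). Pfkfb1, an enzyme that sets fructose 2,6-bisphosphate, was at 1.39 to 2.16, 2.11 to 3.19 and 5.61 to 18.1 CPM (log2 -1.87). Tpm2, β-tropomyosin (log2 0.97), and Uchl1, a ubiquitin hydrolase (log2 0.88), were called higher, and Kcnj3 (log2 -0.67), Hey2 (log2 -0.70) and Tnnt3 (log2 -2.57, at or below 0.193 CPM in all 9 libraries) lower. The MBNL1 values overlapped those of the +dox cohort for each of these genes except Tnnt3.

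No gene was called outside the 3 ventricular cohorts without a vector (+dox, -dox and +/-dox, in which doxycycline was withdrawn), that is, at least 1.5-fold above or below each of them by edgeR's test (0%). At an unadjusted p under 0.05 there were 158 such genes. DESeq2 called 1, the gene model Gm14288, and the test without a fold limit called another, Fam114a2 (log2 0.35 from the nearest cohort, adjusted p = 0.045); voom with library weights called 0, and so did the test without MBNL1 replicate 1.

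The difference between MBNL1 and +dox mice was compared between ventricle and atria by an interaction contrast over the 12 libraries of both tissues. Of 19231 genes, 6 (0.0312%) were called, 3 in each direction (0.0156%), and 1568 had an unadjusted p under 0.05. The study lists the same animals for both tissues, so the 12 libraries came from 6 animals, while this test, like the fit of all 36 libraries, took the tissues as independent. With 1 term for each animal, assumed to keep its replicate number in both tissues, 21 genes were called, 10 higher and 11 lower, among them all 6; without ventricular MBNL1 replicate 1 that fit called 9. Kcnv2 was at 6.01, 8.29 and 6.39 CPM in the +dox atria and 5.10, 7.80 and 8.15 CPM in the MBNL1 atria, which overlapped, while the ventricles did not (log2 difference between tissues 1.96 ± 0.35, adjusted p = 0.0258). Tesc, a calcineurin-like calcium sensor, was at 29.4, 27.9 and 31.0 CPM and at 35.6, 48.4 and 42.2 CPM in the ventricle, and at 2.696 to 2.96 and 1.17 to 2.36 CPM in the atria (log2 difference 1.14 ± 0.20, adjusted p = 0.0162). Emilin2, an elastic fibre glycoprotein, was at 12.4 to 14.2 and 15.5 to 19.0 CPM in the ventricle and at 100.3 to 123 and 77.1 to 88.7 CPM in the atria (log2 difference 0.79 ± 0.14, adjusted p = 0.0122). None of the 6 was called in a fit of only the 12 libraries.

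The other 3 were lower with the vector in the ventricle. Gca, the calcium-binding protein grancalcin, was at 21.3, 20.7 and 27.0 CPM and at 15.6, 11.1 and 13.7 CPM there (log2 -0.77 ± 0.11, adjusted p = 5.86e-05) and at 22.7 to 24.5 and 25.8 to 26.1 CPM in the atria (log2 difference -0.91 ± 0.16, adjusted p = 0.0118). Tceal8, an elongation factor-like gene on the X chromosome, was at 14.4, 13.1 and 15.4 CPM and at 6.42, 7.75 and 7.39 CPM in the ventricle (log2 -0.99 ± 0.11, adjusted p = 1.11e-06) and at 29.0 to 33.0 and 27.6 to 29.7 CPM in the atria. Selenos, a selenoprotein of endoplasmic reticulum degradation, was at 26.1 to 28.1 and 19.2 to 21.6 CPM in the ventricle and at 28.9 to 32.3 and 33.5 to 37.8 CPM in the atria (log2 difference -0.62 ± 0.10, adjusted p = 0.00829). In the ventricle each of the 6 separated the cohorts without overlap, beside 23.2% of all genes tested. The rule for naming these genes asked for this, and the contrast contains this ventricular difference, so it is not separate support. Gca, Tceal8 and Kcnv2 were also called in the ventricle. Without MBNL1 replicate 1, 3 genes remained called for the tissue difference, Emilin2, Gca and Tesc, and without it these were also called with 1 term for each animal.

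**Figure D5:**
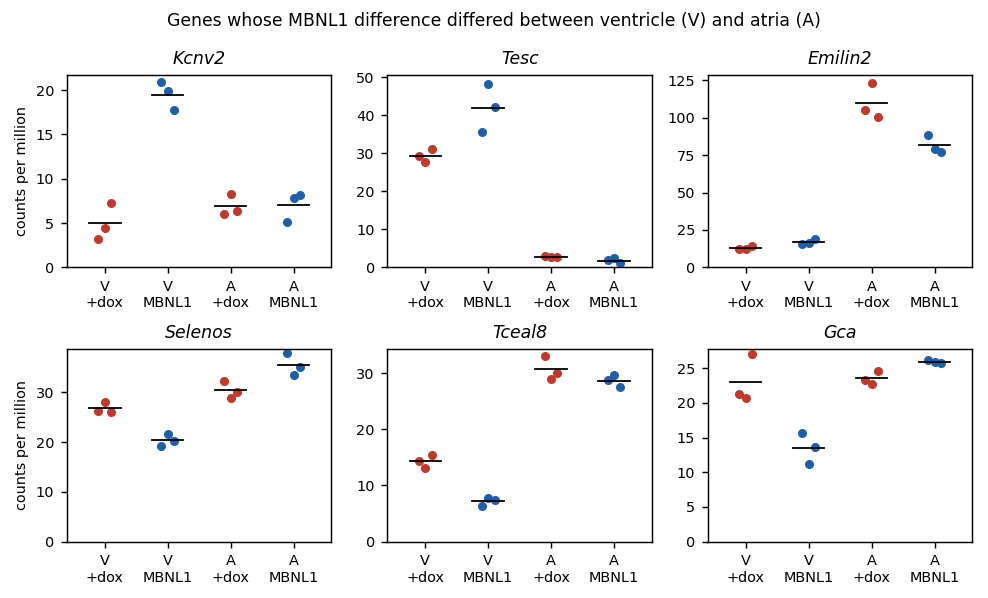
CPM (linear axis from 0) of the 6 genes called for the tissue difference in 3 +dox (red) and 3 MBNL1 (blue) ventricles (V) and atria (A); bars mark means. The Kcnv2 points separate in the ventricle and overlap in the atria, and Gca and Selenos are lower in the MBNL1 ventricles and higher in the MBNL1 atria.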

How the data were processed

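RNA from left ventricles and atria was made into stranded mRNA libraries from 250 ng RNA and read in paired runs of 150 cycles. Per the study's methods the authors aligned reads with STAR 2.7.10b to mm10 with GENCODE M25 and quantified genes with RSEM 1.3.1; versions are as given in the submitters' processing notes. The deposited tables hold expected counts per gene symbol and TPM as the authors computed them. Expected counts were rounded to whole numbers, scaled by TMM and tested with edgeR 4.0.16 (R 4.3.3, robust quasi-likelihood, default expression filter, 1 mean for each of the 12 groups, all 36 libraries, 24 residual degrees of freedom); DESeq2 1.42.0 and limma 3.58.1 served as alternatives. The test was checked on simulated counts, drawn from 1 mean for each gene in all 36 libraries except for genes changed in the MBNL1 ventricles. It called 57 of 97 genes changed 2-fold (58.8%) and 69 of 100 changed 3-fold (69%), and 3 unchanged genes. A gene that was not called is therefore not shown to be unchanged. The simulated counts held no low-detection library and no effect of tissue, sex, library series or animal. The 3 unchanged genes called are thus not a measure of false calls in the real libraries. CPM are TMM-scaled; sums over lists and Mbnl1 are TPM. The 6 libraries held 69.5 to 97.1 M counts; replicates are separate animals by the study's text, and those of 1 cohort differed by more than sampling noise. Fold changes carry the SE of the fit.

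The members and gene lists were chosen with earlier results of these data known. Genes named are muscleblind, Dmpk and the genes the study names. Also named are the 12 largest rises and 12 largest falls called with and without MBNL1 replicate 1 (mean normalized count of at least 100, no overlap, no gene models). List members called are named too, with up to 3 further members of high level a list. The genes called for the tissue difference are named under the same count, overlap and symbol conditions. Alternatives changed the scaling, tool, filter, libraries, fold limit and blocks, left out each library, and, chosen after seeing the data, combined the low-detection library with other changes and took animal as a block (per the study's sample list both tissues came from the same animals; same-numbered ventricles and atria of the +dox and MBNL1 cohorts correlated in their deviations from the group means by 0.152 to 0.523). Of the 19231 symbols tested, 18832 matched GENCODE M21 on the same assembly; upstream sequences are from RefSeq (GRCm38.p6), 250 bases before the start. Withheld items are not reported here.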

Additional observations from a re-analysis of the deposited data

Results flagged for a closer look

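The genes whose difference between MBNL1 and +dox mice was not the same in ventricle and atria by the interaction test were Kcnv2 (log2 difference between tissues 1.96), Tesc (1.14), Emilin2 (0.79), Selenos (-0.62), Tceal8 (-0.90) and Gca (-0.91). Kcnv2 rose in the ventricle by 1.98 on the log2 scale, and its MBNL1 atria overlapped the +dox atria. Tesc was higher with the vector in each ventricle and lower in each atrium, from an atrial level under 3 CPM. Emilin2 was likewise higher with the vector in each ventricle and lower in each atrium. Gca and Selenos were lower in each MBNL1 ventricle and higher in each MBNL1 atrium than in any +dox sample of that tissue. Tceal8 fell in the ventricle and overlapped in the atria. Between 0 and 12 genes were called for this difference when single libraries were left out, so the call of each rests on the libraries used, and with 1 term for each animal 21 genes were called, these 6 included. Groups of 3 libraries are too small for a test of single outlying samples.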

How the results depend on the processing

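The 511 calls of MBNL1 against +dox became 78 with only the libraries compared, 239 with the 18 ventricular libraries, 1722 without a fold limit and 250 at 2-fold. In settings chosen after the data were seen they became 48 with only the libraries compared and without MBNL1 replicate 1, and 256 without MBNL1 replicate 1 and +dox replicate 3. Leaving out single libraries gave 325 (without MBNL1 replicate 1) to 746. Against -dox the 501 calls became 90, 243, 1421 and 285 in the same first 4 settings, and 317 (without -dox replicate 1) to 700 with single libraries left out. The 6 calls for the tissue difference became 18 with DESeq2, 25 with voom, 0 with only the libraries compared and 2 at 2-fold, and, in settings chosen after the data were seen, 21 with animal as a replicate block and 35 with voom and animal as a correlated replicate block; with single libraries left out they ran from 0 (without atrial +dox replicate 2) to 12 (without ventricular MBNL1 replicate 3), and were 2 or 3 without ventricular +dox replicate 2, +dox replicate 1 or MBNL1 replicate 1. Genes outside the 3 cohorts without a vector numbered 1 with DESeq2 and 1 without a fold limit, and 0 to 0 with single libraries left out. The causes of these changes were not tested.

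Samples with the same replicate number correlated in their deviations from the cohort means by 0.0201, 0.217 and 0.296 over genes, so the numbers were not taken as pairs, and 1 of the 3 did not correlate best with its own number. The replicate block gave 565 calls against +dox, 537 against -dox, 7 for the tissue difference and 0 outside the 3 cohorts; a term for the library series gave 636 calls against +dox. With animal as a correlated block, which accounts for both tissues of an animal, voom gave 673 calls against +dox (197 higher, 476 lower), 608 against -dox (173 higher, 435 lower) and 0 outside the 3 cohorts. Of 54 named genes called against +dox, 4 were called in all 21 alternatives and 24 in all but at most 2; 37 lost their call with only the 6 libraries. Values near 0 changed sign. Dmpk was -0.059 without +dox replicate 3 and -0.01 without MBNL1 replicate 2, and ran to 0.12 with single libraries left out. Gja5 was 0.0268 with voom, 8.16e-05 with only the libraries compared, 0.0258 there without MBNL1 replicate 1, 0.0180 with DESeq2 without MBNL1 replicate 1, and -0.11 to 0.0510 with single libraries left out. Mbnl3 was 0.137 with only the libraries compared and without MBNL1 replicate 1, 0.126 with DESeq2 without it, and -0.78 to 0.137 with libraries left out.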
